A study of Rattus norvegicus and Mus musculus with 17 samples.

Results

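Vimentin (Vim), lamin A/C (Lmna), transgelin 2 (Tagln2), the capping protein Capg and the Arp2/3 subunit Arpc1b were followed in 3 comparisons of rodent liver. The genes were found by their symbols in the deposited tables, and all 5 were listed in each of the 3 tables, among 11532 distinct symbols in all. They had been picked with earlier results of these tables in view, because all 5 were higher in each comparison, so their own differences are given below as a description without a test. The gene identifiers in the tables were 22352, 16905, 21346, 12332 and 11867 in mouse and 81818, 60374, 304983, 297339 and 54227 in rat, in the order above.

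The cytoskeleton consists of filament systems that give a cell its shape and let it move and divide. Vimentin builds the intermediate filaments of mesenchymal cells, endothelium and leukocytes, whereas hepatocytes build theirs from keratins 8 and 18, so vimentin in normal liver is known mainly from non-parenchymal cells. Lmna encodes the A-type lamins, which line the inner face of the nuclear envelope. Tagln2 is a small calponin-related protein that binds actin filaments, Capg caps the fast-growing filament end and belongs to the gelsolin family, and Arpc1b is a subunit of the Arp2/3 complex, which starts branched actin filaments.

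RNA sequencing covered 17 libraries of liver or tumour tissue from male animals. C57BL/6 mice had all received the liver carcinogen diethylnitrosamine (DEN, 50 mg/kg) at 14 days of age and TCPOBOP, a synthetic activator of the nuclear receptor CAR, at 2 mg/kg 30 days later. Tissue was collected at 5 months for the group before tumours (n = 3) and at 8 months for the group with tumours (n = 3), so tumour stage and age cannot be told apart, and no group without DEN was compared. Male ACI rats of 10 weeks had cells of the hepatoma line MH3924a injected into the liver, and the Morris hepatomas were taken 2 weeks later (n = 4). These tumours all come from 1 transplanted line. Regenerating liver came from rats of 10 to 12 weeks 24 h after partial hepatectomy (n = 4). Untreated, age-matched ACI livers (n = 3) served as controls for both rat comparisons, which therefore share their control libraries. Whether each library is a separate animal is not stated, so every test measures the spread between libraries. Values were read as RPKM, read counts scaled by transcript length and by library depth. The headers name no unit, and comparisons of level between genes rest on this reading. Differences are on the log2(RPKM + 1) scale with the standard error (SE) of the fit.

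All 3 tables hold preselected genes with a deposited p-value below 0.05, so the background of change is high. Genes were called at a limma Benjamini-Hochberg adjusted p under 0.05. Among tested genes 17.9% were called higher and 49.5% lower in DEN livers with tumours, 85.5% and 8.73% in Morris hepatoma, and 21.2% and 0.763% in regenerating liver. The median log2 differences of all tested genes were -0.56, 1.58 and 0.53. With library medians set equal these medians became -0.16, -0.08 and -0.09, the calls became 912 higher and 614 lower in place of 658 and 1823 for DEN, 2029 and 2389 in place of 7042 and 719 for Morris hepatoma, and 19 and 59 in place of 361 and 13 for regenerating liver. Each difference below is therefore to be read against the median of its comparison.

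**Figure D1:**
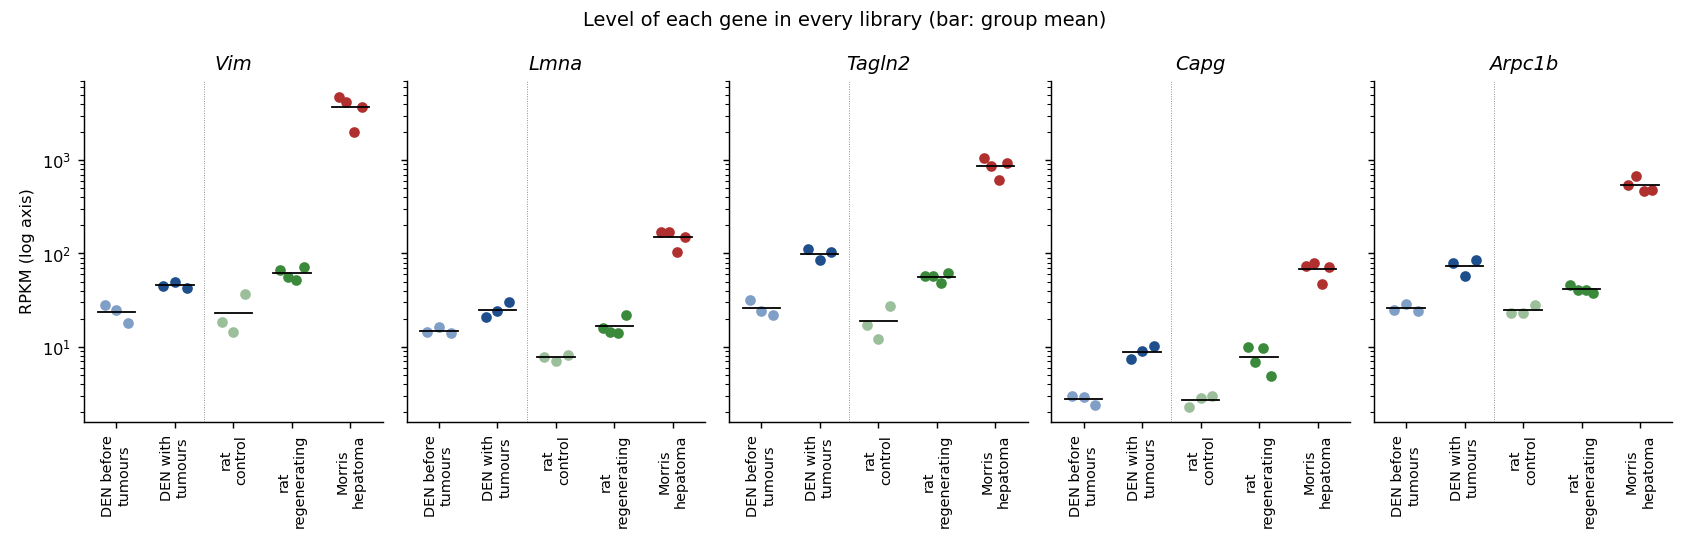
RPKM of the 5 genes in every library on a logarithmic axis, with a point for each library and a line for each group mean. In the rats each gene is lowest in control liver, intermediate in regenerating liver and highest in Morris hepatoma, and in the mice each is higher in livers with tumours than before tumours, without overlap between groups. Of all tested genes, 24.9% were higher without overlap in DEN livers with tumours. Against control liver this held for 87.2% in hepatoma and 89.4% in regenerating liver, and for 84.5% in hepatoma against regenerating liver.

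Among the 5 genes, vimentin had the largest difference between hepatoma and liver. In DEN mice it measured 28.4, 24.8 and 18.0 RPKM before tumours and 44.3, 49.4 and 43.1 RPKM with tumours. All 3 livers with tumours lay above all 3 livers before tumours, by 1.92-fold between the means (log2 difference 0.94 ± 0.18 SE). In the whole table, 24.9% of tested genes were higher without overlap, and the 5 genes were all among them. In rats, vimentin was 18.5, 14.3 and 36.6 RPKM in control liver, with the third library above the others. It was 67.2, 56.1, 51.8 and 70.9 RPKM in regenerating liver and 4798, 4223, 1997 and 3701 RPKM in hepatoma. The control, regenerating and hepatoma groups did not overlap. The hepatoma mean was 159-fold the control mean (log2 difference 7.29 ± 0.38) and 59.8-fold the regenerating mean (5.82 ± 0.30), and the regenerating mean was 2.66-fold the control mean (1.47 ± 0.28). Without the third control library the regenerating difference was 1.85, and without the second it was 1.20. Separation without overlap was common in the rat tables, where 87.2% of tested genes for hepatoma, 89.4% for regenerating liver and 84.5% for hepatoma against regenerating liver were higher in this way. By size, vimentin ranked 12th of 8233 tested genes in the hepatoma difference. By level, it was the 16th most abundant tested gene in hepatoma and the 1374th in control liver.

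Lmna, the nuclear member, had the smallest difference of the 5 in DEN mice. It measured 14.5, 16.1 and 13.9 RPKM before tumours and 20.6, 24.4 and 30.1 RPKM with tumours. The highest liver before tumours lay below the lowest with tumours, as for 24.9% of tested genes, and the means differed 1.69-fold (log2 difference 0.70 ± 0.16). In control rat liver Lmna was even, at 7.83, 7.06 and 8.21 RPKM. Regenerating libraries had 15.7, 14.5, 14.1 and 21.9 RPKM, the last standing above the rest, and hepatomas 170.8, 171.8, 104.4 and 149.0 RPKM, with the third library lowest. The hepatoma mean was 19.4-fold the control mean (4.08 ± 0.21) and 9.0-fold the regenerating mean (3.09 ± 0.18). The regenerating mean was 2.15-fold the control mean (0.99 ± 0.16).

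Tagln2 had the largest difference of the 5 in DEN mice and in regenerating liver. In DEN mice it measured 31.8, 24.3 and 22.1 RPKM before tumours and 110.4, 85.9 and 102.5 RPKM with tumours, a 3.82-fold difference of the means (log2 difference 1.90 ± 0.18). Tagln2 moved from between 22.1 and 31.8 RPKM to the highest level of the 5 genes in each liver with tumours. In rats it was 17.3, 12.2 and 27.4 RPKM in control liver, again with the third library highest. It was 57.5, 57.7, 48.8 and 62.2 RPKM in regenerating liver and 1049, 858.3, 617.8 and 920.0 RPKM in hepatoma. The hepatoma mean was 45.4-fold the control mean (5.48 ± 0.29) and 15.2-fold the regenerating mean (3.88 ± 0.22). The regenerating mean was 2.98-fold the control mean (1.59 ± 0.23).

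Capg was the least abundant of the 5 in all 17 libraries. DEN livers held 2.96, 2.92 and 2.38 RPKM before tumours and 7.39, 8.97 and 10.1 RPKM with tumours, a 3.21-fold difference of the means (log2 difference 1.38 ± 0.15). Because these levels are close to the added 1 RPKM, the log2 scale understates the change, and with 0.1 RPKM added the difference was 1.64. In rats Capg was 2.29, 2.82 and 2.97 RPKM in control liver. Regenerating livers were uneven, at 10.05, 6.86, 9.75 and 4.83 RPKM, with the fourth nearest the controls, and hepatomas held 73.1, 78.2, 47.2 and 71.8 RPKM. The hepatoma mean was 25.1-fold the control mean (4.19 ± 0.21) and 8.58-fold the regenerating mean (2.97 ± 0.21). The regenerating mean was 2.92-fold the control mean (1.22 ± 0.21).

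Arpc1b differed about as much as Capg in both tumour models and least of the 5 in regeneration. DEN livers held 24.8, 29.1 and 24.1 RPKM before tumours and 78.9, 57.7 and 84.9 RPKM with tumours, a 2.84-fold difference of the means (log2 difference 1.46 ± 0.18). The lowest liver with tumours was above the highest before tumours, as for 24.9% of tested genes. Control rat livers had 22.8, 22.8 and 28.4 RPKM, regenerating livers 45.6, 40.8, 40.7 and 37.7 RPKM, and hepatomas 537.1, 669.5, 467.8 and 476.7 RPKM. The control, regenerating and hepatoma ranges were apart, as was common among the tested rat genes. The hepatoma mean was 21.8-fold the control mean (4.38 ± 0.21) and 13.1-fold the regenerating mean (3.66 ± 0.15). In regeneration the mean was 1.67-fold the control mean (0.72 ± 0.13), close to the median of all tested genes, 0.53, and with library medians set equal the difference was 0.10.

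**Figure D2:**
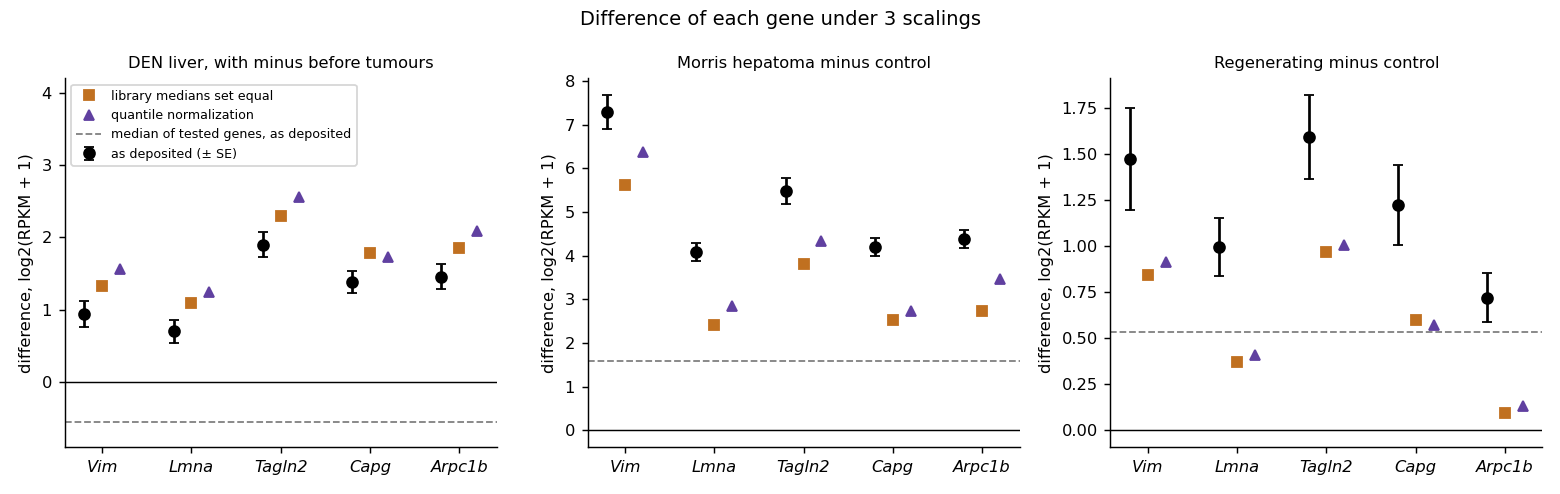
Difference of each gene on the log2(RPKM + 1) scale in 3 comparisons, as deposited (circles, bars of 1 SE), with library medians set equal (squares) and after quantile normalization (triangles), with the median of all tested genes as a dashed line. All 15 deposited values lie above the dashed line, and in regenerating liver Arpc1b comes down to 0.10 with medians set equal.

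The order of the 5 genes by RPKM differed between groups. Livers with tumours in DEN mice read Tagln2, Arpc1b, Vim, Lmna and Capg from highest to lowest in 3 of 3 libraries. Before tumours the leading 3 genes stood in 3 different orders, so neighbours among Vim, Tagln2 and Arpc1b were within their spread, with group means of 23.7 ± 5.28, 26.1 ± 5.06 and 26.0 ± 2.67 RPKM (SD, n = 3). In hepatoma the order was Vim, Tagln2, Arpc1b, Lmna and Capg in 4 of 4 libraries. That order also held in 3 of 4 regenerating libraries, with Tagln2 above Vim in the second. In control liver Arpc1b led in 2 of 3 libraries and Vim in 1.

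Because the 5 genes were higher together, the DNA upstream of their starts is shown for the rat, in which the differences were largest. RefSeq (GRCr8) promoters were matched for 4 genes, and Capg is named only. Each run is the 250 bases before the start, 5′ to 3′ on the gene's strand, at chr17:81577011-81577260 (+) for Vim, chr2:176258236-176258485 (-) for Lmna, chr13:87499158-87499407 (+) for Tagln2 and chr12:14609489-14609738 (-) for Arpc1b. Capitals mark matches on either strand to the AP-1 site spelled TGANTCA, the TEAD site spelled CATTCC, the GC box spelled GGGCGG, the core promoter element spelled TATAAA, the CCAAT box, or the CArG box, and no match overlapped another.
Vim: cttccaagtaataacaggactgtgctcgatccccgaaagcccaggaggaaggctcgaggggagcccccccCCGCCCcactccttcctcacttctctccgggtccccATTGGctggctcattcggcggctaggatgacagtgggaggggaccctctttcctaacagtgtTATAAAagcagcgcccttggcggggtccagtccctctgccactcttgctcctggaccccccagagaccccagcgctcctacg
Lmna: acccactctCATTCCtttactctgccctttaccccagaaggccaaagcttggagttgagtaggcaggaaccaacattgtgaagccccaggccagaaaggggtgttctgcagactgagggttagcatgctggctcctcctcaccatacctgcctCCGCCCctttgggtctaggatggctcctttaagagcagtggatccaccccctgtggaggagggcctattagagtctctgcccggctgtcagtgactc
Tagln2: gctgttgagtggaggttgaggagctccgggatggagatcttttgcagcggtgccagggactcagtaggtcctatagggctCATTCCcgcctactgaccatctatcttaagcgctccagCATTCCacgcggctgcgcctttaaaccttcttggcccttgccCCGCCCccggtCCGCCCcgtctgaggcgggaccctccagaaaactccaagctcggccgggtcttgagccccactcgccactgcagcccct
Arpc1b: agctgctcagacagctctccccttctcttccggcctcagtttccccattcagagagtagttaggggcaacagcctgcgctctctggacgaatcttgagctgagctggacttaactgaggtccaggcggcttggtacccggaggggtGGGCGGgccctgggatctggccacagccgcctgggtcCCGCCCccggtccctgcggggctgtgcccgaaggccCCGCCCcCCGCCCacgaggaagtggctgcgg
The GC box was found in all 4 windows, against 30.5% of 33469 rat promoter windows of this length, with 1 match in Vim, 1 in Lmna, 2 in Tagln2 and 4 in Arpc1b. Vim held the TATA letters 82 to 77 bases before the start (found in 12.9% of promoters) and CCAAT on the reverse strand 144 to 140 bases before it (34.0%). CATTCC occurred in Lmna, 241 to 236 bases before the start, and in Tagln2 at 170 to 165 and at 132 to 127 bases (12.1% of promoters). No AP-1 (6.34%) or CArG match (1.5%) lay in these windows. The matches describe the letters alone.

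Other genes of the same systems were taken from 8 cytoskeleton lists of 152 genes in all, with the 5 genes left out. In DEN livers with tumours 36 of these genes were tested, of which 19 were called higher, 3 lower and 14 neither. Their median log2 difference was 0.65 against -0.56 for all tested genes, of which 17.9% were called higher and 49.5% lower. In Morris hepatoma 114 of 114 list genes were called higher, against 85.5% of all tested genes, with a median of 2.45 against 1.58. In regenerating liver 14 of 39 list genes were called higher and none lower, against 21.2% and 0.763% of all tested genes, with a median of 0.63 against 0.53. The counts of single lists below are to be read against the same shares. With library medians set equal the higher and lower counts over all 8 lists were 28 and 0, 58 and 6, and 0 and 0. Quantile normalization gave 28 and 1, 75 and 6, and 1 and 0. The count in regenerating liver also fell to 1 without the first control library, to 0 without the second, to 11 without the third, and to 4, 3, 9 and 6 without regenerating libraries 1, 2, 3 and 4. Each of the 13 regenerating calls named below was lost without at least 1 library and with library medians set equal.

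**Figure D3:**
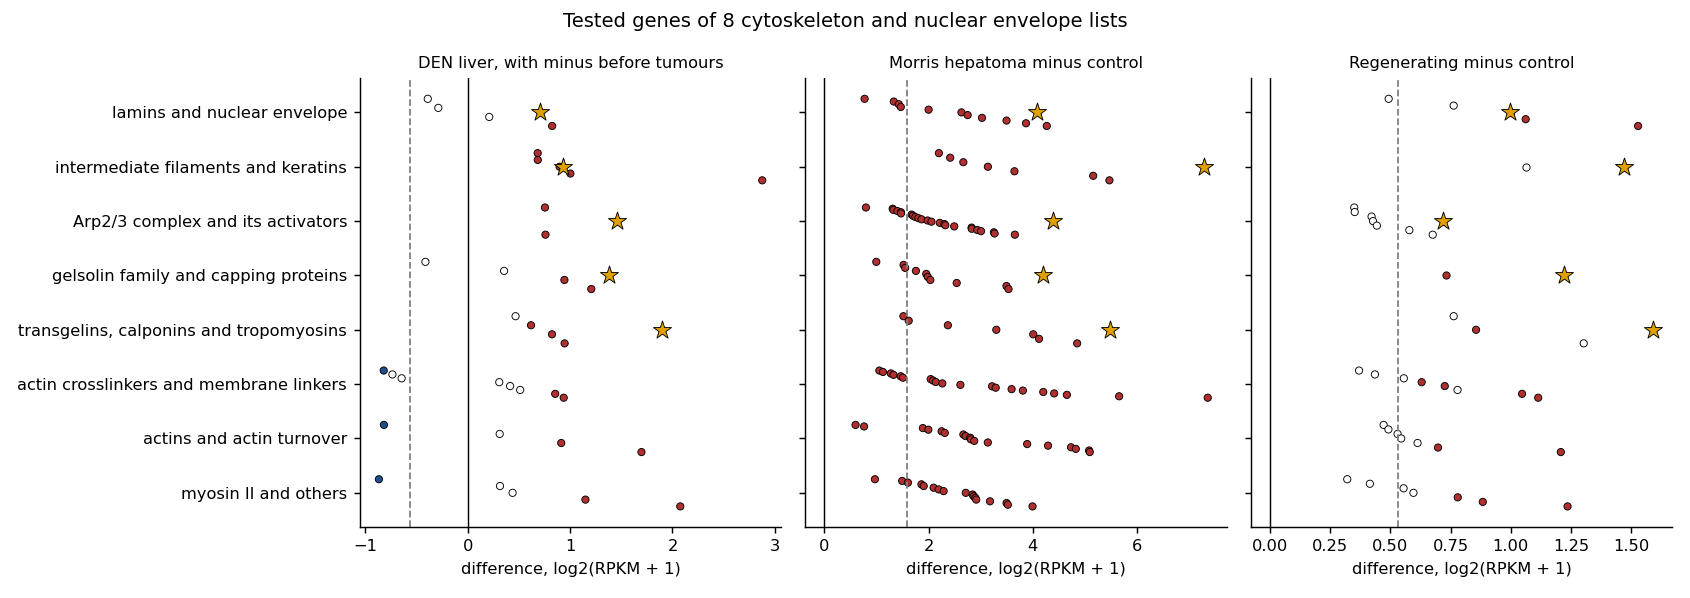
Differences on the log2(RPKM + 1) scale (horizontal axis) of the tested genes of 8 lists (rows) as deposited, with a circle for each gene (red called higher, blue called lower, white not called), a star for each of the 5 genes in the row of its own system and a dashed line at the median of all tested genes. All 114 circles are red in Morris hepatoma, where 85.5% of all tested genes were called higher, and 58 of the 114 were called higher with library medians set equal. In DEN livers 3 circles are blue, where 49.5% of all tested genes were called lower.

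Among lamins and nuclear envelope genes, 11 of 11 tested rose in hepatoma, with 6 higher and 1 lower when library medians were set equal. Lmnb1, a B-type lamin, went from 0.534 ± 0.136 to 16.5 ± 3.18 RPKM (log2 difference 3.49 ± 0.19). The lamin B receptor Lbr went from 1.80 to 40.0 RPKM (3.87 ± 0.21), and Sun1, which ties the envelope to the cytoskeleton, from 1.29 to 44.1 RPKM (4.27 ± 0.24). In regenerating liver 3 of 5 rose, which were Lmnb1 (to 3.56 ± 1.40 RPKM, 1.53 ± 0.21, adjusted p = 0.013), Lbr (1.06 ± 0.19, adjusted p = 0.029) and Nrm, or nurim, an inner membrane protein (1.00 ± 0.13, adjusted p = 0.011). In DEN livers 1 of 4 rose, Nrm (0.82 ± 0.14, adjusted p = 0.0057), and Lmnb2, Tmpo and Tor1aip1 had values of -0.29, 0.21 and -0.39. The ratio of Lmna to Lmnb1, a pair chosen after its values were seen, was 11.9 to 16.7 in control liver, 3.95 to 6.86 in regenerating liver and 5.43 to 12.4 in hepatoma. The control ratios divide by Lmnb1 levels of 0.443 to 0.689 RPKM, below the filter of 1 RPKM.

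Among intermediate filaments and keratins, 7 of 7 tested rose in hepatoma (4 higher and 0 lower with library medians set equal). They were led by Nes (nestin, 5.47 ± 0.25, from 0.0533 to 47.5 RPKM), Prph (peripherin, 5.16 ± 0.28) and Ppl (periplakin, 3.65 ± 0.28). In DEN livers 5 of 5 rose, among them Krt23 (0.671 ± 0.346 to 11.1 ± 0.697 RPKM, 2.88 ± 0.17, adjusted p = 9.2e-05) and the hepatocyte keratins Krt18 (1.00 ± 0.15, adjusted p = 0.0037) and Krt8 (0.90 ± 0.21, adjusted p = 0.026). The Krt8 call ended without any of the 3 libraries before tumours or the third with tumours, at an adjusted p of up to 0.12. In regenerating liver Krt18 alone was tested, at 129 ± 56.2 in control and 262 ± 72.2 RPKM (1.06 ± 0.28, adjusted p = 0.13). The ratio of Vim to Krt18, also a pair chosen after its values were seen, was 0.154 to 0.189 in control liver, 0.195 to 0.337 in regenerating liver and 2.92 to 7.91 in hepatoma. In DEN mice it was 0.0788 to 0.122 before and 0.0828 to 0.119 with tumours, ranges that overlap. Vimentin thus passed keratin 18 in hepatoma libraries only, among those compared here.

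Tagln2's relatives, the transgelins, calponins and tropomyosins, which sit along actin filaments, rose in hepatoma in 7 of 7 tested (4 higher and 0 lower with library medians set equal). Tpm2 had a log2 difference of 4.85 ± 0.21, Tpm4 of 4.12 ± 0.27 and Tagln, the smooth muscle form, of 4.01 ± 0.38, from 3.51 ± 1.23 to 75.7 ± 37.2 RPKM. Tagln2 exceeded Tagln 3.93- to 6.83-fold in control liver and 4.85- to 26.6-fold in hepatoma, a pair chosen after its values were seen. In DEN livers 3 of 4 rose, which were Tpm4 (0.95 ± 0.13, adjusted p = 0.0026), Tpm1 (0.82 ± 0.14, adjusted p = 0.0077) and Cald1, or caldesmon (0.62 ± 0.14, adjusted p = 0.024). The Cald1 call ended, with an adjusted p of up to 0.083, without any 1 library other than the first with tumours. In regenerating liver 1 of 3 rose, Tpm3 (0.86 ± 0.16, adjusted p = 0.035), beside Tpm4 at 1.30 ± 0.33 (adjusted p = 0.11).

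In Capg's own group, the gelsolin family and capping proteins, 10 of 10 rose in hepatoma (3 higher and 1 lower with library medians set equal). They were led by Tmod3, which caps the slow-growing end (3.53 ± 0.18), Gsn, or gelsolin (2.73 ± 0.582 to 41.3 ± 8.33 RPKM, 3.49 ± 0.21), and Capza1 (2.54 ± 0.18). The ratio of Capg to Gsn, a pair chosen after its values were seen, was 0.714 to 1.35 in control liver and 1.59 to 1.70 in hepatoma. In DEN livers 2 of 4 rose, Vil1, the villin of microvilli (0.217 ± 0.120 to 1.84 ± 0.525 RPKM, 1.21 ± 0.16, adjusted p = 0.0023), and Twf2 (0.94 ± 0.16, adjusted p = 0.0065). In regenerating liver the single tested gene Add1, an adducin, rose (0.73 ± 0.15, adjusted p = 0.047).

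For Arpc1b, 8 other Arp2/3 subunits were taken as the closest partners, without Actr3b, which is also on the list. In hepatoma all 8 were called higher (3 higher and 0 lower with library medians set equal), from 1.32 for Arpc5l to 3.65 for Actr2, and Arpc1b at 4.38 lay above this range. In DEN mice none of the 8 was listed beside Arpc1b in that preselected table. In regenerating liver 4 were listed, with log2 differences of 0.35 (Arpc5) to 0.44 (Actr3) that all fell below 0 with library medians set equal, and limma called none of them, although all 4 had an unadjusted p under 0.05, in a table selected on such a p. Arpc1a, the alternative form of the same subunit, was 18.5 ± 2.04 RPKM in control liver, 25.1 ± 2.93 in regenerating liver and 64.6 ± 9.96 in hepatoma. Arpc1b exceeded it 1.21- to 1.40-fold in control liver, 1.36- to 1.96-fold in regenerating liver and 7.18- to 9.54-fold in hepatoma, a pair chosen after its values were seen. With the activators included, 24 of 24 genes rose in hepatoma (8 higher and 1 lower with library medians set equal), among them Wasf1 (3.27 ± 0.36) and Coro1a, a coronin of blood cells (3.25 ± 0.34). In DEN livers 2 of 2 rose, Abi2 (0.76 ± 0.12, adjusted p = 0.005) and Coro1c (0.76 ± 0.15, adjusted p = 0.012), the latter not called without the second library before or the third with tumours (adjusted p up to 0.062). In regenerating liver 0 of 7 were called by limma, all 7 with an unadjusted p under 0.05.

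In the remaining lists, the crosslinkers, the actins and their turnover, and the list of myosin II genes and others rose in hepatoma in 20 of 20, 18 of 18 and 17 of 17 tested genes. With library medians set equal 12, 12 and 9 were called higher and 0, 2 and 1 lower. The 24 hepatoma genes named by the rule kept their calls under this scaling. Fscn1, the fascin that bundles filaments in cell protrusions, had the largest log2 difference of the 114, from 1.06 ± 1.13 to 315.5 ± 79.9 RPKM (7.36 ± 0.35), followed by the filamin Flna (5.65 ± 0.28). Cytoplasmic actin Actg1 went from 187 ± 51.5 to 6440 ± 1692 RPKM (5.09 ± 0.29), Enah reached 5.08 ± 0.20, Vasp 4.82 ± 0.21, Pdlim7 4.65 ± 0.19, the myosin Myh10 3.99 ± 0.19 and the myosin light chain Myl12a 3.50 ± 0.21. In DEN livers 2, 2 and 2 genes rose in these lists and 1, 1 and 1 fell, of 8, 4 and 5 tested. Acta2, the smooth muscle actin of myofibroblasts, rose from 4.0 ± 1.22 to 15.3 ± 4.25 RPKM (1.70 ± 0.24, adjusted p = 0.0035), Myh9 by 1.15 ± 0.16 and Actn1 by 0.94 ± 0.16. Vasp (0.91 ± 0.21) and Pdlim7 (0.85 ± 0.23) rose as well, with adjusted p-values of 0.023 and 0.046. The Vasp call was lost without the second or the third library before tumours or the third with tumours, and that of Pdlim7 without any 1 library other than the second with tumours.

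The 3 genes that fell in DEN livers were Lcp1, the plastin of leukocytes (29.5 ± 5.26 to 16.2 ± 2.79 RPKM, -0.82 ± 0.18, adjusted p = 0.019), Limk1, a kinase that inactivates cofilin (-0.82 ± 0.16, adjusted p = 0.013), and Mylk, the myosin light chain kinase (-0.87 ± 0.18, adjusted p = 0.017). Each of these calls was lost without the first and also without the second library before tumours, those of Lcp1 and Mylk also without the first with tumours, and all 3 were lost with library medians set equal. In regenerating liver 4 of 8, 2 of 7 and 3 of 7 genes rose in the same lists, among them Flna (1.11 ± 0.18), the membrane linker Msn (1.05 ± 0.16), Actn1 (0.73 ± 0.15), Actb (337 ± 59.8 to 784 ± 159 RPKM, 1.21 ± 0.19, adjusted p = 0.018), the filament-severing Cfl1 (0.70 ± 0.12), and the myosin subunits Myl9 (1.24 ± 0.23), Myh9 (0.88 ± 0.18) and Myl12a (0.78 ± 0.15).

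Hepatoma and regenerating liver were compared directly on the genes listed in both rat tables, which were thus selected for a difference from the same controls. Among 1673 tested genes 81.5% were called higher in hepatoma and 4.72% lower, with a median of 1.47. Library medians set equal gave 461 higher and 525 lower calls in place of 1364 and 79. Of the list genes 39 of 40 were called higher, with a median of 2.32. With medians set equal 23 were called higher and 2 lower, with a median of 0.78. Flna (4.54 ± 0.22), Vasp (4.28 ± 0.16), Pdlim7 (4.02 ± 0.15) and the membrane linker Ezr (3.85 ± 0.17) had the largest differences among the genes named by the rule. Add1 (1.25 ± 0.16) and Krt18 (1.35 ± 0.23) lay below the median of all tested genes, and with medians set equal their differences were -0.29 and -0.19. Vimentin, at 5.82, ranked 4th of 1673 in this comparison.

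The genes with the nearest profiles were found by the root mean square (RMS) difference between profiles of log2(RPKM + 1), each set to its own mean. This distance takes in the difference between groups as well as the spread within them. The nearest of many genes is bound to lie below the median over genes. Over the 7 libraries of the hepatoma table, vimentin was closest to Fscn1 (0.18), Emp1 (0.25) and Anxa1 (0.27), with a median of 2.88 over genes. Tagln2 was closest to Ptrf (0.13), Capg to Fopnl (0.087), Lmna to Leprel4 (0.085) and Arpc1b to Uhrf1 (0.082), followed by Incenp (0.092) and Mad2l1 (0.097). Control means were below the added 1 RPKM for Uhrf1 (0.0794, and 21.0 RPKM in hepatoma), Incenp (0.300 and 25.6) and Mad2l1 (0.880 and 37.8). The same held for Leprel4 (0.165 and 18.2) and Ptrf (0.669 and 74.9). The fold changes of these genes were therefore not those of Arpc1b, Lmna and Tagln2, although the profiles lay close on this scale. Over the 7 libraries of the regeneration table, Vim and Tagln2 were among each other's nearest 3 genes, at an RMS difference of 0.13, where the median over genes was 0.65. Vimentin was there closest to Loxl2 (0.067), Tagln2 to Serpinb9 (0.13), Lmna to Mfsd10 (0.058), Capg to Id1 (0.20) and Arpc1b to Cln6 (0.044). Over the 6 DEN libraries the nearest were Fxyd5 for Vim (0.12), L3mbtl3 for Lmna (0.065), Pak1 for Tagln2 (0.16), Wdr67 for Capg (0.11) and Ces2e for Arpc1b (0.091). Means of Loxl2 (0.793 RPKM) and Mfsd10 (0.767) in control liver, and of L3mbtl3 (0.701) before tumours, also lay below the added 1 RPKM. The fold changes of these genes were not those of Vim and Lmna.

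In 5 of 17 libraries all 5 genes lay on the same side of their group means, and in the others they were split. The third control library was above its group mean for 5 of 5 genes, by 0.75 for Vim and 0.58 for Tagln2 on the log2 scale, and the third hepatoma was below its mean for 5 of 5, from 0.19 below for Arpc1b to 0.81 below for Vim. In the fourth regenerating library the genes parted, with Lmna 0.40 above and Capg 0.56 below the mean, its group's highest and lowest value.

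**Figure D4:**
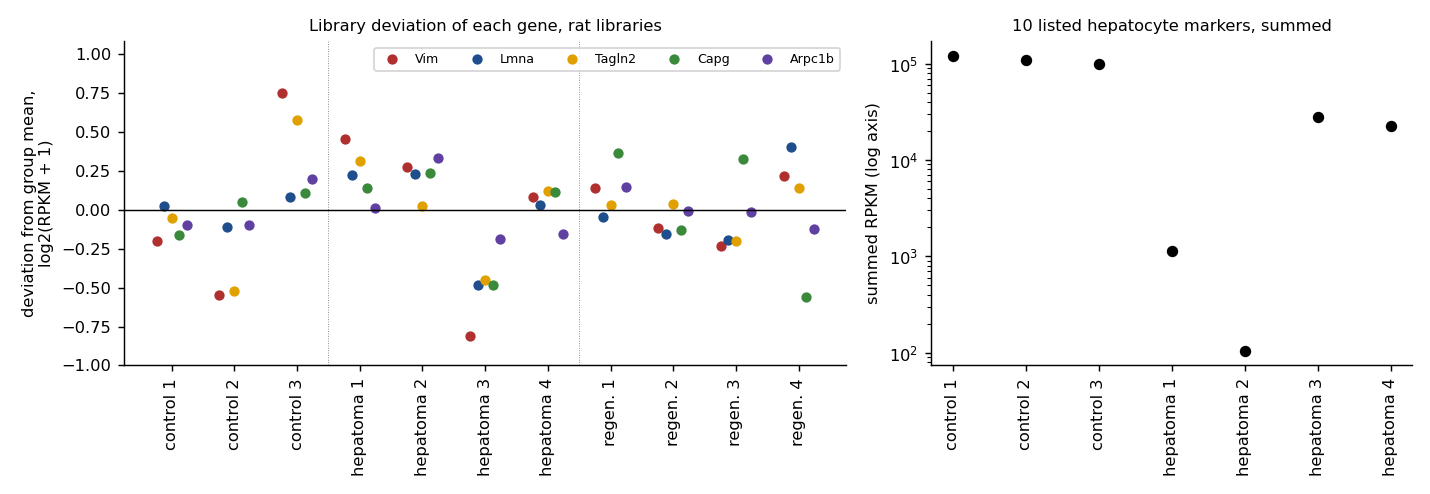
Left, deviation of each of the 5 genes (colours) from its group mean on the log2(RPKM + 1) scale in each rat library. Right, summed RPKM of the 10 listed hepatocyte markers on a log axis in the control and hepatoma libraries. The third control library lies above 0 and the third hepatoma below 0 for all 5 genes, and hepatomas 3 and 4 hold 27870 and 22570 RPKM of hepatocyte markers, above the 1140 and 104 RPKM of hepatomas 1 and 2.

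Listed markers of several other cell types also differed between these groups. In every comparison, only markers preselected by a deposited p-value below 0.05 were listed. That single listed markers differed was thus fixed in advance, and the unlisted markers are missing from the sums. In whole tissue, more cells of a type and more RNA per cell cannot be told apart. Stellate cell and fibroblast markers (7 of 12 listed) summed to 20.2 to 84.6 RPKM in control liver, highest in the third library, and to 471 to 1195 RPKM in hepatoma. Endothelial markers (4 of 12) summed to 9.27 to 16.7 and 57.0 to 88.7 RPKM, and lymphocyte and neutrophil markers (2 of 12) to 0.061 to 0.255 and 2.02 to 6.53 RPKM, with Cd3g at 0 in 1 control. Cholangiocyte markers (2 of 8) summed to 5.13 to 9.60 and 196 to 277 RPKM. The sums of the Kupffer cell markers (3 of 12) overlapped, at 109 to 133 and 121 to 165 RPKM, and the genes went opposite ways, with group means of 31.7 and 104 RPKM for Cd68 and 80.37 and 16.04 RPKM for Clec4f. Hepatocyte markers (10 of 12) summed to 100200 to 119800 RPKM in control liver and to 1140, 104, 27870 and 22570 RPKM in the 4 hepatomas, with Hnf4a listed at 0 in 1 of them. Vimentin in the same 4 hepatomas, in the same order, was 4798, 4223, 1997 and 3701 RPKM, and a link to the marker sums was not tested.

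In DEN mice the stellate markers (2 of 12) summed to 4.53 to 7.20 RPKM before and 13.4 to 22.2 RPKM with tumours, endothelial markers (6 of 12) to 21.6 to 29.6 and 28.6 to 49.5 RPKM, with overlap, and lymphocyte and neutrophil markers (2 of 12) to 1.70 to 3.04 and 3.51 to 4.45 RPKM. Kupffer cell markers (6 of 12) summed to 68.5 to 75.5 and 48.5 to 86.6 RPKM. Among them Cd14 went from a mean of 2.37 to 33.9 RPKM and Cd68 from 14.5 to 20.2 RPKM, while Clec4f went from 33.9 to 9.29, Vsig4 from 16.8 to 5.98, Timd4 from 2.11 to 0.629 and Cd163 from 1.22 to 0.381 RPKM. Of the cholangiocyte markers Sox9 alone was listed, at 2.38 to 4.36 and 7.99 to 10.9 RPKM. Hepatocyte markers (5 of 12) summed to 42360 to 56060 and 131100 to 145200 RPKM. Alb, Apoa1 and Trf carried this sum, while Cyp2e1 went from a mean of 3135 to 280 RPKM and Cps1 from 191 to 88.4 RPKM. In regenerating liver stellate markers (3 of 12) summed to 17.4 to 46.3 RPKM in control and 55.1 to 73.6 RPKM after hepatectomy. There endothelial markers (2 of 12) summed to 3.15 to 4.78 and 8.46 to 15.2 RPKM. Tf, the 1 hepatocyte marker listed, measured 12430 to 19520 and 19920 to 21190 RPKM, without overlap, as for 89.4% of tested genes. The log2 difference of Tf was 0.46, against a median of 0.53 for all tested genes. Limma did not call Tf, although its unadjusted p was under 0.05. No Kupffer cell, lymphocyte or cholangiocyte marker was listed there. The part of these cell types in the values of the 5 genes was not tested.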

How the data were processed

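The authors deposited 3 tables of values per library, whose headers name no unit. They were read as RPKM, being never negative and not whole, with 0.001 read as no reads. They list 4649 genes for DEN, 9082 for hepatoma and 2093 for regeneration. In every one, the log2 ratio the authors deposited matched that of the group means within 0.01, and their p-value matched, within 1%, an equal-variance test of linear RPKM with no correction, although the header names a Holm correction. Aligner, build and counting are not given in the sources used here, and depth is not given, so no counting intervals are printed.

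A gene was tested if the number of libraries at 1 RPKM or more reached the size of the smaller group. Tests ran on log2(RPKM + 1) with limma 3.58.1 (trend, robust, two-sided) in R 4.3.3, adjusted by Benjamini-Hochberg over all protein-coding genes (21951 mouse genes of GENCODE M21 or 23154 rat genes of RefSeq GRCr8), since the tables are preselected. The fit was also run on simulated data of independent genes, with none or few of them changed, equally often up and down. These tables differ from that setting, so the run says nothing about their scaling. Hepatoma and regenerating liver were compared in a fit of all 3 rat groups on 1752 genes with equal control values. Python 3.11.15, numpy 2.4.6, pandas 2.3.3 and matplotlib 3.10.9 did the rest.

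The 5 genes and the lists were chosen with earlier results of these data known. Named list genes were the up to 3 called genes of each list with the largest difference and every called gene against its list's majority. Some list genes are counted but not reported by name here. For each of the 5 genes the 3 nearest profiles were also found. The alternatives were 0.1 RPKM added, no filter, a filter at 5 RPKM, equal library medians, quantile normalization, the replicate number as a block, adjustment over tested genes alone and leaving out each library.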

Additional observations from a re-analysis of the deposited data

How the results depend on the processing

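Equal library medians and quantile normalization rest on genes already selected as changed. The count of called genes went from 2481 to 1526 and 1472 for DEN livers, from 7761 to 4418 and 4392 for hepatoma, and from 374 to 78 and 66 for regenerating liver, in that order of settings. Cytoskeleton list genes called higher went from 114 to 58 and 75 for hepatoma, from 14 to 0 and 1 for regenerating liver, and from 39 to 23 and 24 for hepatoma against regenerating liver. Beside the count of 0, limma gave 7 genes an unadjusted p under 0.05. In hepatoma against regenerating liver, Add1 turned to -0.29 and -0.13 under these settings and Krt18 to -0.19 under equal medians.

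All 215 alternative values of the 20 differences of the 5 genes were higher, as in the report. The genes were picked for being higher and the alternatives reuse the same libraries, so this count is a description alone. In the order Vim, Lmna, Tagln2, Capg and Arpc1b, equal medians gave log2 differences of 1.33, 1.10, 2.30, 1.78 and 1.85 for DEN, 5.63, 2.42, 3.81, 2.53 and 2.72 for hepatoma, 0.84, 0.37, 0.97, 0.60 and 0.10 for regenerating liver, and 4.28, 1.55, 2.34, 1.43 and 2.12 for hepatoma against regenerating liver. Quantile normalization gave 1.56, 1.24, 2.56, 1.74 and 2.09, then 6.38, 2.85, 4.34, 2.73 and 3.46, then 0.91, 0.41, 1.01, 0.57 and 0.13, and then 5.39, 1.71, 2.75, 1.52 and 2.40. With 0.1 RPKM added, Capg had 1.64 in DEN livers and 4.58 in hepatoma.

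A filter at 5 RPKM left 1361 calls for DEN and 153 for regenerating liver, with 7 list genes in the latter. Adjustment over tested genes alone gave 1626 calls and 39 list genes for regenerating liver. Leaving out 1 library gave 1347 to 2593 calls for DEN, lowest without the second library before tumours, with 1370 without the first and 1537 without the third with tumours. In regenerating liver it gave 21 to 353 calls and 0 to 11 list genes, with 21 calls without the first control, 42 without the second, and 155, 80 and 239 without regenerating libraries 1, 2 and 4. Beside the count of 0 list genes without the second control, limma gave 39 an unadjusted p under 0.05.

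Replicate numbers did not pair the libraries: same-numbered libraries had correlations of deviations of -0.09, -0.16 and -0.02 for DEN, -0.15, -0.22 and -0.20 for hepatoma and 0.15, -0.21 and -0.32 for regenerating liver. With the replicate number as a block, 25 genes and 1 list gene were called in regenerating liver. Of the list genes named, 18 of 20 kept their call under the block for DEN and 24 of 24 for hepatoma. The cause of these shifts was not tested, and depth was not given, so its limits are not stated.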
